A study of Mus musculus with 3 samples.

Results

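Macrophages and monocytes are neither B cells nor natural killer (NK) cells, so transcripts that mark them were taken as a reading of other spleen cells in a sort. Which cells made the RNA was not tested. Red pulp macrophages of the spleen engulf aged red blood cells and recycle their iron, and depend on the transcription factor Spi-C. Monocytes circulate, are held in reserve in the spleen and carry abundant lysozyme. The 10 genes described here were chosen by name from these cells: the complement chain genes C1qa, C1qb and C1qc, the apolipoprotein gene Apoe, the lysozyme genes Lyz1 and Lyz2, Cd68, Hmox1, Vcam1 and Csf1r. All 10 were on the array, as 15 of its 44170 transcripts and 10 of its 24171 gene symbols. Apoe had 2 transcripts, Vcam1 and Csf1r had 3 each, and the other genes had 1.

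The study set a population that its titles call natural killer B (NKB) cells beside B cells and NK cells. All 3 came from spleens of wild-type C57/BL6 mice aged 8 weeks, with no treatment named in the labels, and each population was hybridised to 1 Cy3-labelled NimbleGen expression array. Neither the number of mice per sort nor the gate is given in the sources used here. The sorting text of every sample speaks of long-term stem cells. With 1 array per population there are no replicates, so nothing could be tested, and precision is limited by how few arrays there are.

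Values are intensities on a linear scale, as the authors normalized them. A gene counts as detected when it is brighter than 95% of 924 receptor genes for odours and pheromones, taken as silent in spleen. This level was 149 for the array of B cells, 137 for NK and 135 for NKB. Values under that level were set to it before differences were taken. Genes are called higher or lower at a 2-fold difference, and "at least" stands before a fold whose dimmer value was set to the level. Of the receptor genes, 20.9% were 2-fold or more apart in NKB against B when no level was set, 21.0% in NKB against NK and 14.0% in NK against B, so a single 2-fold difference near the level carries little weight. The sorted populations carried their own markers: all 10 B cell markers were detected on B and NKB and 1 on NK, while the 10 NK markers measured were all detected on NK, 7 of them on NKB and 1, Ncr1, on B. Of the NK markers, 9 were called lower on NKB than on NK and none higher, with a median log2 difference of -2.34. Against B, 1 of them, Gzma, was called higher on NKB. Of the B cell markers, 4 were called lower on NKB than on B and 2 higher.

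Fewer of the 10 genes were detected on the B array than on the other 2. Only C1qa, C1qb, C1qc, Lyz2 and Hmox1 were called higher than B on both NK and NKB. On B, 2 of 10 were detected, Apoe and Cd68, against 10 on NK and 9 on NKB, where Lyz1 was missing. Over all genes the detected share was 23.4% on B, 25.1% on NK and 24.96% on NKB. Between NKB and B, 8 of the 10 were called higher and none lower (C1qa, C1qb, C1qc, Apoe, Lyz2, Hmox1, Vcam1 and Csf1r), with a median log2 difference of 2.15. With the level at the 99th percentile of the receptor genes, 4 were (the C1q chains and Apoe), and over all genes 460 were called higher in place of 1102. Over all genes 4.56% were called higher and 4.75% lower in that comparison, and the median was -0.14, the offset between the 2 detection levels. By transcript, 11 of 15 were higher and none lower, against 6.24% and 5.8% of all transcripts. Among genes that at least 1 of these 2 arrays detected, 14.4% were called higher. Between NK and B, 7 of the 10 were higher and none lower (median 2.45), against 2.22% of all genes higher and 2.97% lower (median -0.12). Among genes that NK or B detected, 7.37% were called higher and 9.84% lower. By transcript, 10 of 15 were higher and none lower, against 2.84% and 3.81% of all transcripts. Shifting the arrays to equal medians over 3388 shared genes raised NK against B by 0.19 on the log2 scale and turned that background from 537 higher and 717 lower to 726 and 465, with 8 of the 10 genes higher. In bulk RNA, the number of macrophages in a sort, the RNA per macrophage and RNA from the sorted cells themselves cannot be told apart.

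Between NKB and NK the 10 genes split. Above NK lay C1qb, Apoe and Vcam1, below it lay Lyz1, Lyz2 and Cd68, and C1qa, C1qc, Hmox1 and Csf1r differed less than 2-fold. Of the higher calls, that of Vcam1 was lost with the level at the 99th percentile, and that of C1qb under a new quantile normalization and with equal medians. The counts of 3 higher and 3 lower stand against 5.97% of all genes higher and 5.1% lower, and the median log2 differences were 0.21 for the 10 genes and -0.020 for all genes. Among genes that NKB or NK detected, 17.5% were called higher and 15% lower. By transcript, 4 of 15 were higher and 3 lower, against 7.89% and 6.21% of all transcripts. The comparisons of NKB with B and with NK share the NKB array, and those against B share the B array, so their values are given side by side only.

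**Figure D1:**
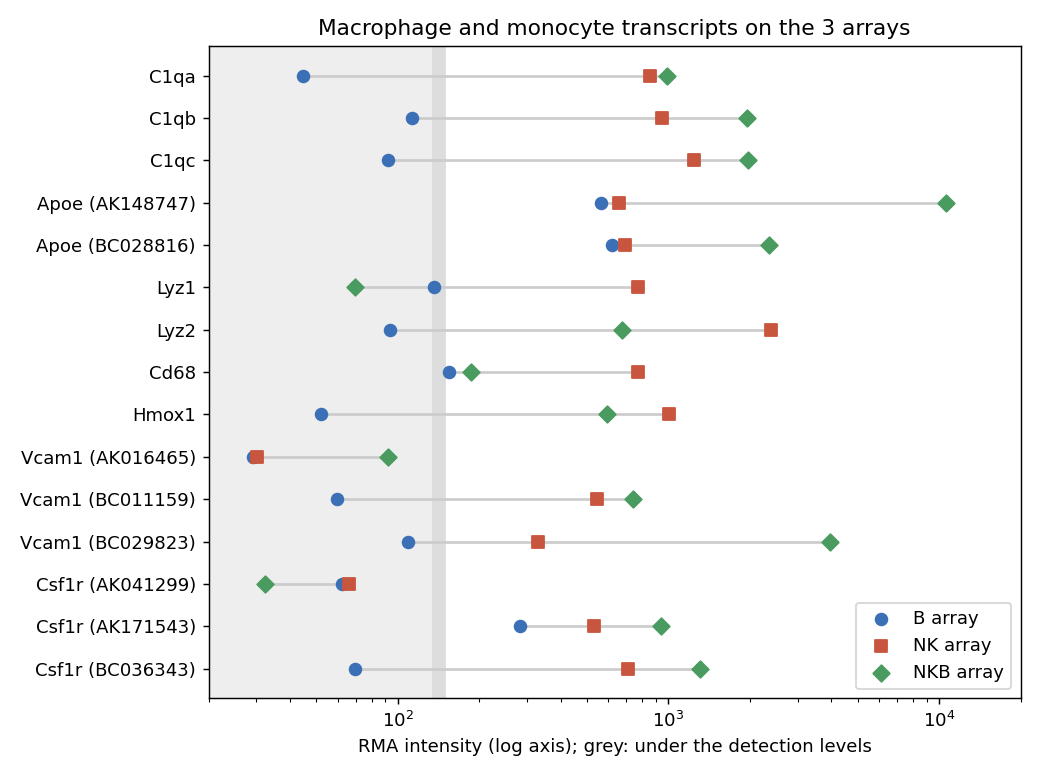
Intensity (log axis) of each of the 15 transcripts on the B (circles), NK (squares) and NKB (diamonds) arrays, 1 array each; light grey lies under the lowest of the 3 detection levels (135) and darker grey between it and the highest (149). The B circles lie in or near the grey except for Apoe and 1 Csf1r transcript, and the NKB diamond lies left of the NK square for Lyz1, Lyz2, Cd68, Hmox1 and the Csf1r transcript under the level.

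The promoters of 4 genes are shown, to set 2 neighbouring C1q genes beside the 2 lysozyme genes. As deposited, C1qb and C1qc read higher on NKB than on NK, C1qc by less than 2-fold, and Lyz1 and Lyz2 were called lower. Each line is the 250 bases before the start, from RefSeq on build GRCm38.p6, all on the minus strand. C1qb lies at chr4:136886201-136886450, C1qc at chr4:136892915-136893164, Lyz1 at chr10:117292869-117293118 and Lyz2 at chr10:117282273-117282522. In the C1q promoters capitals mark GAGGAA on either strand, a core bound by the PU.1 family of myeloid transcription factors. In the lysozyme promoters they mark the longest run that both share.
C1qb: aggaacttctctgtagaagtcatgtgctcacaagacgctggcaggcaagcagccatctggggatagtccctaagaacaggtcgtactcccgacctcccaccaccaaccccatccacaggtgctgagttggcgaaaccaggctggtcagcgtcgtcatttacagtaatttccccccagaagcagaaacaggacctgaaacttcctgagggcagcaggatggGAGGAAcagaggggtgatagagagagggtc
C1qc: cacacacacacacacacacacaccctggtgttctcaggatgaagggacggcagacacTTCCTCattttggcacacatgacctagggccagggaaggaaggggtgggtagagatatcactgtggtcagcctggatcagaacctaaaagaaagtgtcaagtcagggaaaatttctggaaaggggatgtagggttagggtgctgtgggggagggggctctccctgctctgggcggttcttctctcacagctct
Lyz1: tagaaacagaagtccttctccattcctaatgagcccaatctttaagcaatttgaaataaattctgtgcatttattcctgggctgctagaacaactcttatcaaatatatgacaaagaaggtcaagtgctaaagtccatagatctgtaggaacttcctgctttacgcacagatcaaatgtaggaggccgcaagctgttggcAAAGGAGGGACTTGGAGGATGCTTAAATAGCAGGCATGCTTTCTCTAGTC
Lyz2: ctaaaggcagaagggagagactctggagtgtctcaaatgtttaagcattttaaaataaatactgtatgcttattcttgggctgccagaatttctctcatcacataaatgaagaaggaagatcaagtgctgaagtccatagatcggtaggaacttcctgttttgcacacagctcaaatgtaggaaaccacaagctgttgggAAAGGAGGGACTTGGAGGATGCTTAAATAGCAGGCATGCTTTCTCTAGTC
The table held promoters of 6 of the 10 genes: C1qb, C1qc, Apoe, Lyz1, Lyz2 and Cd68. GAGGAA was found 30 to 25 bases before the start of C1qb and 193 to 188 bases before that of C1qc, and in 23.3% of all 32851 promoter windows of this length. Windows of Apoe and Cd68 hold it too. The C1qc match lies within a longer one, GAGGAAGT, which 2.44% of all windows hold. Neither lysozyme window holds GAGGAA, though the Lyz1 and Lyz2 windows share 200 identical bases in their alignment (79.4% of its positions), with the last 50 before the start the same. The motif TGACNNNGC, an antioxidant response element, was in 10.2% of all windows and in that of C1qb. These are matches of letters to the motifs named. Other sites of the PU.1 family were not searched, in the lysozyme windows or elsewhere, and nothing here measured binding.

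C1q, the recognition molecule that starts the classical complement pathway, is built from the A, B and C chains, which macrophages make together. In build MM9 the 3 transcripts lie on chromosome 4, C1qb at 136436045-136442028, C1qc at 136445718-136448809 and C1qa at 136451831-136454718. C1qa read 44.7 on B, 856 on NK and 985 on NKB. C1qb read 113 on B, 947 on NK and 1951 on NKB. C1qc read 92.2 on B, 1247 on NK and 1972 on NKB. All 3 chains were under the level on B and among the brighter transcripts on the other arrays, above at least 95.4% of transcripts on NKB and 95.9% on NK. In NKB they were at least 6.61-fold (C1qa), 13.1-fold (C1qb) and 13.2-fold (C1qc) higher than in B, and in NK at least 5.75-fold, 6.36-fold and 8.38-fold higher.

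The order NKB, NK, B held for each chain as deposited, but the first pair were close. Against NK, NKB was 1.15-fold higher for C1qa, 2.06-fold for C1qb and 1.58-fold for C1qc. The call of C1qb was lost under that quantile normalization (log2 difference 0.63) and with equal medians (0.94), and the difference of C1qa turned from 0.20 to -0.13 under quantile normalization.

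Apoe encodes the lipid carrier apolipoprotein E, which macrophages secrete in quantity. Its transcripts lie on chromosome 7 at 20281615-20284381 and 20281620-20284381 (MM9). The transcript AK148747 read 565 on B, 659 on NK and 10571 on NKB. The transcript BC028816 read 620.5 on B, 689.6 on NK and 2352 on NKB. Both were detected on every array, lay within 1.17-fold of each other between NK and B, and were higher on NKB. The excess over B was 18.7-fold for the one and 3.79-fold for the other, and over NK 16.0-fold and 3.41-fold. Between these 2 transcripts the NKB minus B difference had a standard deviation of 1.63 on the log2 scale. That was larger than for 95.1% of 5926 genes with several transcripts. Of the 10 genes, Apoe alone was well above the level on B, and it was not called between NK and B.

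Vcam1 encodes an adhesion molecule that binds integrins and is carried by red pulp macrophages and by activated endothelium. Its 3 transcripts on chromosome 3 span 115812866-115832606 (MM9) and did not read alike. BC029823 read 109 on B, 328 on NK and 3968 on NKB. BC011159 read 59.6 on B, 545 on NK and 740 on NKB. AK016465 read 29.3 on B, 30.1 on NK and 91.9 on NKB, under the level on all arrays. NKB was highest in both detected transcripts, at least 26.6-fold above B for BC029823 and at least 4.97-fold for BC011159. Against NK the 2 detected transcripts were 12.1-fold and 1.36-fold higher, so only BC029823 was called. The call of Vcam1 over NK (3.69-fold on the mean of 3 transcripts) also takes in AK016465. Its values under the level were averaged as they stood (log2 difference 1.61). That call was lost with the level at the 99th percentile (log2 difference 0.69 in place of 1.88). The standard deviation between Vcam1 transcripts of the NKB minus B difference was 2.44 on the log2 scale, larger than for 99.3% of 5926 genes with several transcripts, whose median was 0.50. Between NK and B the gene mean was not called, while both detected transcripts were higher in NK, at least 2.21-fold and 3.66-fold.

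Endothelial and stromal cells also carry Vcam1. Of 12 genes of those cells, B had 1 above the level, NK 3 and NKB 2, and none was called higher on NKB than on B or NK. Their summed intensity was 1868 on B, 1371 on NK and 1390 on NKB. Pecam1, an adhesion gene that leukocytes also carry, read 1289 on B, 552 on NK and 709 on NKB and Col1a1 read 59.3, 177 and 159, while the vascular cadherin gene Cdh5 was under the level on all 3. Of the integrin partners of VCAM-1, Itgb1 read 213 on B, 1609 on NK and 937 on NKB, Itga4 read 123, 220 and 164, and Itgb7 read 1244, 1061 and 63.4. The part of these cells in the Vcam1 difference was not tested.

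Csf1r encodes the receptor for the growth factor CSF-1, on which macrophages and many monocytes depend. Its 3 transcripts lie on chromosome 18. BC036343 read 69.7 on B, 708 on NK and 1313 on NKB. AK171543 read 282 on B, 532.01 on NK and 940 on NKB. AK041299 read 62.4, 65.9 and 32.3, under the level on every array. The 2 detected transcripts had the order NKB, NK, B, and NKB was at least 8.82-fold and 3.33-fold above B but only 1.85-fold and 1.77-fold above NK. On the mean of the 3, which the dim transcript lowers, the NKB value of Csf1r was at least 2.29-fold that of B and 1.17-fold that of NK. The ligand genes Csf1 and Il34 were under the level on all arrays. Tyrobp, an adaptor of macrophages that NK cells use as well, read 108 on B, 2858 on NK and 194 on NKB.

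The lysozyme genes went the other way. Lysozyme cleaves bacterial cell walls, Lyz2 is the main form in myeloid cells and Lyz1 the form of Paneth cells in the gut. Both are on chromosome 10, Lyz2 at 116714388-116719320 and Lyz1 at 116724852-116729924 (MM9). Lyz2 read 93.7 on B, 2387 on NK and 671 on NKB. Lyz1 read 137 on B, 772 on NK and 69.4 on NKB. NK was highest for both, and NKB was above the level for Lyz2 only. Lyz2 was 3.56-fold lower in NKB than in NK and at least 4.51-fold higher than in B, and Lyz1 was at least 5.71-fold lower than in NK. The 2 genes are near copies, the files hold no probe sequences, and signal passing between them was not tested.

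Cd68 encodes a lysosomal membrane protein of macrophages and monocytes, at 69477872-69479564 on chromosome 11 (MM9). It read 155 on B, 770 on NK and 187 on NKB. NKB lay close to B, 1.21-fold apart and both just above the level, and was 4.12-fold lower than NK.

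Hmox1 encodes heme oxygenase 1, which breaks down heme from engulfed red cells, at 77617547-77624489 on chromosome 8 (MM9). It read 51.9 on B, 1003 on NK and 595 on NKB. It was under the level on B, and NKB was at least 3.99-fold above it. NKB was 1.69-fold below NK, which passed 2-fold under quantile normalization (log2 difference -1.07). Its NKB minus NK difference (-0.75 on the log2 scale) lay between those of the C1q chains and of the lysozymes.

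**Figure D2:**
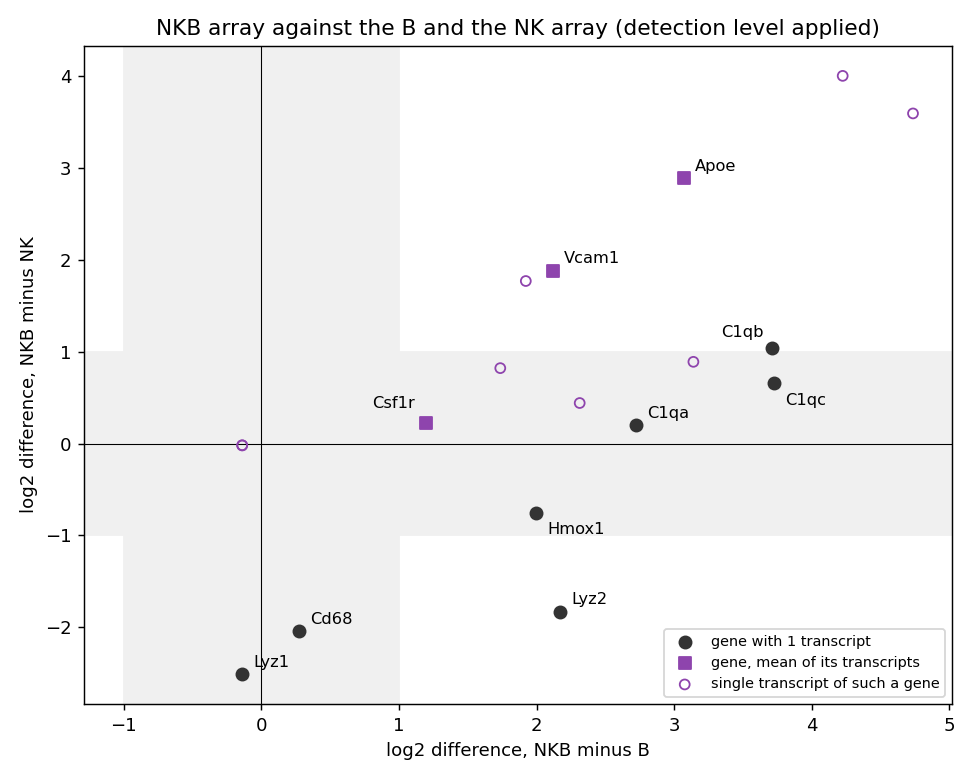
Log2 difference of NKB from B (horizontal axis) and from NK (vertical axis) for the 10 genes, with the detection level applied; filled marks are genes, open circles are single transcripts of Apoe, Vcam1 and Csf1r, and grey bands are differences under 2-fold. Apoe, Vcam1 and C1qb sit to the upper right, Lyz2 to the lower right, and Lyz1 and Cd68 low and near 0 against B.

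The authors' deposited tables of 2-fold differences listed 11 of the 15 transcripts as higher in NKB than in B and none as lower. Against NK the authors' deposited tables listed 4 as higher and 3 as lower. All 18 entries carry the calls made here. They come from the same arrays at the same 2-fold threshold, so this is no independent check. The folds there use no detection level, for example 22.04-fold for C1qa and 36.3-fold for the Vcam1 transcript BC029823 against B in the authors' deposited table. Every row of those deposited tables had an intensity of at least 100.01 on its brighter array, and the dim Vcam1 and Csf1r transcripts, past 2-fold in 1 or both comparisons without a level, are not among them.

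Several other genes of red pulp macrophages were, like Apoe and Vcam1, called higher on NKB than on both other arrays or on one of them. Of 15 such genes, none of them among the 10, the B array detected 0, the NK array 7 and the NKB array 11. Against NK, 4 were higher in NKB and 1 lower, and against B 5 were higher and none lower. Over all genes, the background for the lists below too, 5.97% were higher and 5.1% lower against NK, and 4.56% and 4.75% against B. The median log2 differences of this list were 0.072 against B and -0.020 against NK, since most of its genes lay near or under the level. Pparg, a nuclear receptor of lipid metabolism, read 33.6 on B, 87.9 on NK and 595 on NKB. Axl, a receptor for the uptake of dying cells, read 67.5, 112 and 498. Spic, which encodes Spi-C, read 77.0, 131 and 375, and Cd163, the receptor for haemoglobin bound to haptoglobin, read 101, 78.3 and 396. These 4 genes were under the level on NK and at least 2.74-fold above it on NKB. Treml4, a receptor of red pulp macrophages and of some monocytes, was the one gene called lower, at 68.4 on B, 815 on NK and 280 on NKB. Another 4 detected genes read lower on NKB than on NK by less than 2-fold. They were Cd5l (40.8 on B, 234 on NK and 144 on NKB), Itgad (52.0, 248 and 160), Fcgr4 (85.3, 289 and 152) and Nr1h3 (95.2, 154 and 136). Adgre1 and Mertk read higher by less than 2-fold, Mertk at 49.9, 146 and 157. Adgre1, which encodes the F4/80 antigen, read 121 on B, 397 on NK and 478 on NKB.

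Genes of monocytes went both ways between NKB and NK. Of 19 measured, the B array detected 8, the NK array 11 and the NKB array 10, and in NKB against NK 3 were higher and 5 lower. The 5 lower ones were the chemokine receptor gene Ccr2 (75.7 on B, 330 on NK and 44.5 on NKB), Ly6c1, Ly6c2 (229, 506 and 218), the integrin gene Itgam (33.1, 348 and 88.7) and the nuclear receptor gene Nr4a1. The 3 higher ones, Cybb, Ctss and the PU.1 gene Spi1, were all detected on B as well, Ctss at 939 on B, 328 on NK and 1118 on NKB and Spi1 at 667, 195 and 394. NK cells are themselves known to carry Itgam, Ly6c2 and Cx3cr1, so these genes do not mark monocytes alone in an NK sort. Against B, 3 monocyte genes were higher in NKB and 2 lower, and the list medians were -0.14 against B and -0.020 against NK, the offsets between levels.

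**Figure D3:**
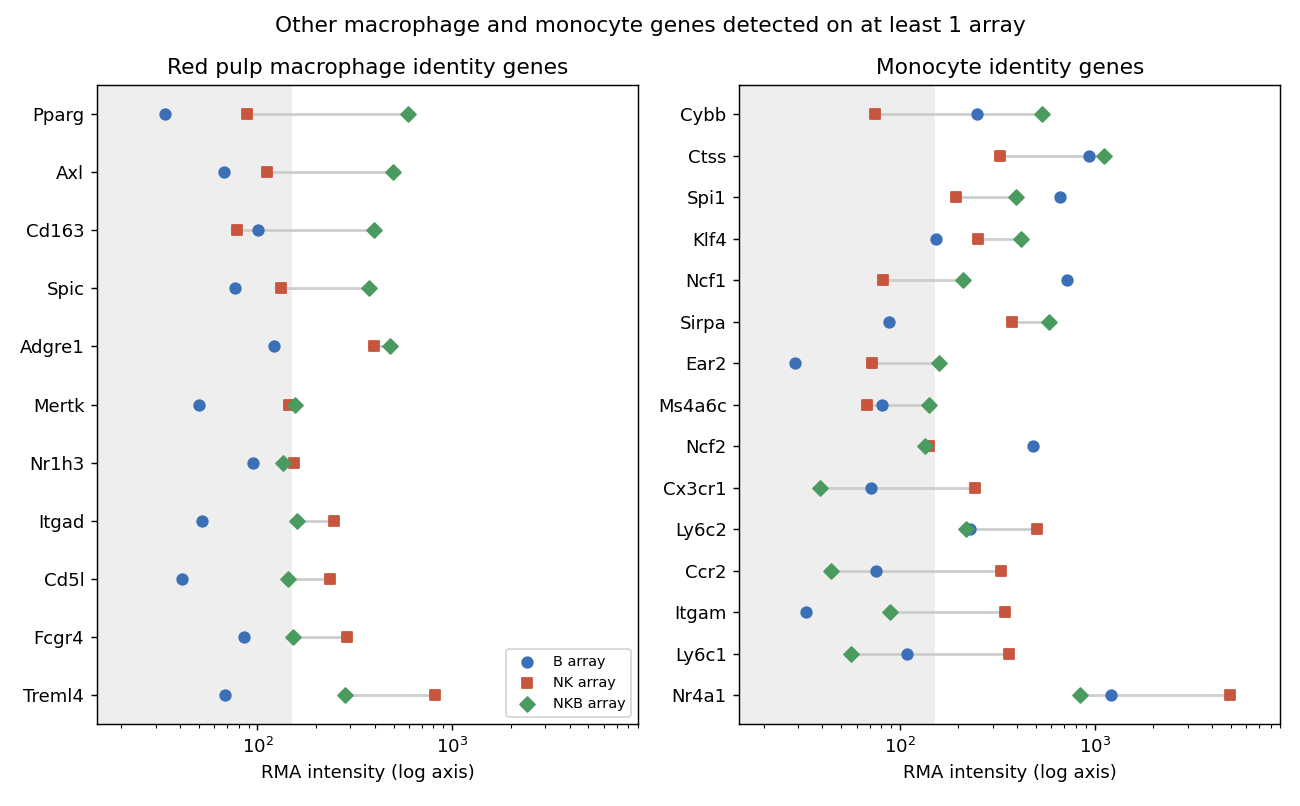
Intensity (log axis) on the B (circles), NK (squares) and NKB (diamonds) arrays of the red pulp macrophage genes (left) and monocyte genes (right) detected on at least 1 array, sorted by the NKB minus NK difference; grey lies under the highest detection level (149). On the left the 4 uppermost NK squares lie in the grey with the NKB diamonds to the right of it, and on the right the lower NKB diamonds lie left of the NK squares.

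Several iron and heme genes were also called higher on NKB. Of 18 of them besides Hmox1, 5 were called above B on NKB and none below, and 5 above and 2 below NK. Over all genes 4.56% were called above B and 4.75% below, and 5.97% above NK and 5.1% below. The B array detected 7 of the 18, NK 11 and NKB 8. With Hmox1 included, the list medians were -0.14 against B and -0.020 against NK, the offsets between levels. Trf, the plasma iron carrier transferrin, read 104 on B, 979 on NK and 2997 on NKB. Hmox2, the constitutive heme oxygenase gene, read 270, 250 and 1413, and Fth1, the heavy chain of the iron store ferritin, read 6949, 4235 and 18532. Blvrb read 216, 175 and 454, while Blvra, which acts on the bile pigment that heme oxygenase makes, read 206, 280 and 74.2. Slc40a1, the iron exporter gene of red pulp macrophages, was under the level on all arrays. Hmox2, Blvrb and Fth1 are expressed by many cell types.

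Some globin transcripts of red blood cells were also higher on NKB than on B. Of 11 erythroid genes, 3 were called higher on NKB than on B (Hbb-b1, Hba-a1 and Hba-a2), 1 higher than on NK (Hbb-b1) and none lower. Of these 11, B had 4 above the level, NK 5 and NKB 4, with summed intensities of 1887 on B, 9171 on NK and 11605 on NKB. Hbb-b1 read 252 on B, 2083 on NK and 5583 on NKB, and Hba-a1 read 597, 3247 and 3468. Hba-a2 read 462, 3094 and 1921, Hbb-b2 read 61.0, 171 and 123, and Slc4a1, the anion exchanger of red cells, read 286, 306 and 188, so these genes were highest on NK. Alas2 and Klf1, which define red cell precursors, were under the level on all arrays. The part of red blood cells, or of red cells inside macrophages, in these values was not tested.

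Few genes of other myeloid cells were detected. Of 14 neutrophil genes, B had 1 above the level and the others 2 each, with summed intensities of 947, 1188 and 855. S100a9 read 59.7 on B, 204 on NK and 53.4 on NKB. Lcn2 was above the level on all arrays, at 256, 339 and 144, and was the one neutrophil gene called, lower on NKB than on NK. Of 9 dendritic cell genes, NK had 2 above the level and the others 1 each, and Itgax, also known in NK cells, read 65.6, 364 and 95.5. Ccr7, a chemokine receptor gene that B cells also carry, was bright on B at 899, under the level on NK at 39.6 and at 321 on NKB. The marginal zone macrophage genes Marco, Cd209b and Siglec1 were under the level on all 3 arrays.

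**Figure D4:**
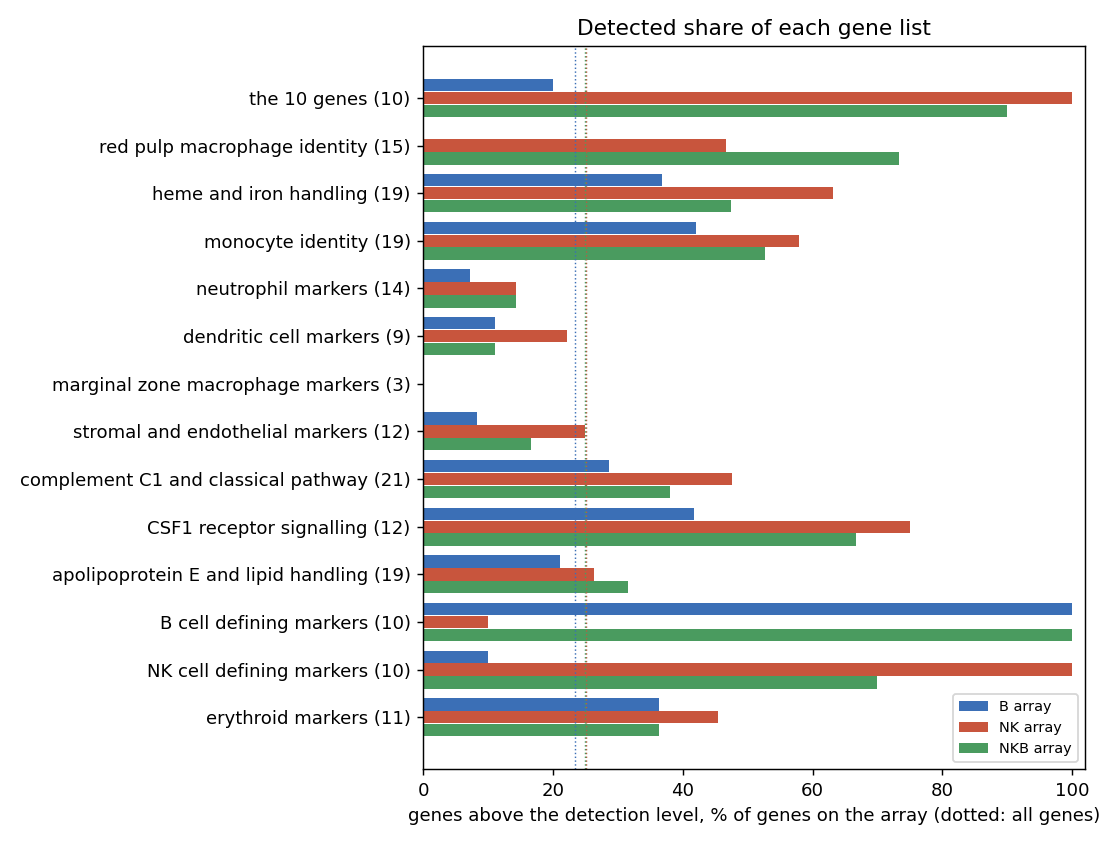
Share of the genes of each list that lay above the detection level on the B, NK and NKB arrays, with the number on the array in brackets; dotted lines are the shares over all genes (23.4%, 25.1% and 24.96%). Red pulp macrophage genes run from 0 on B to 11 of 15 on NKB, and marginal zone macrophage genes have no bar.

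Most partners of these genes were not called between NKB and either other array. Of 18 complement genes besides the C1q chains, NKB had 1 above and 1 below its B value, and 3 above and 2 below the NK value. Over all genes the shares were 4.56% and 4.75% against B, and 5.97% and 5.1% against NK. The B array detected 6 of the 18, NK 7 and NKB 5, and a gene under the level on both arrays cannot be called. Cfp, which encodes the stabiliser properdin, read 347 on B, 330 on NK and 1015 on NKB, and C2, which C1 cleaves through C1s, read 375, 105 and 187. C1ra, C1s1, C3 and C4b, which act beside or after C1q, were under the level on all arrays. Of 18 lipid genes besides Apoe, none was called between NKB and B, and 1 was higher and 1 lower than in NK. These were Abcg1, a cholesterol exporter (88.8 on B, 111 on NK and 289 on NKB), and Apoc4, a neighbour of Apoe (35.1, 325 and 30.8). Of 11 other genes of CSF-1 receptor signalling none was called between NKB and B, and against NK 2 were called above and 1 below.

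The genes whose pattern over the 3 arrays lay nearest to the mean of the C1q chains were Tmsb4x, Hba-a1, Ctsb, S100a10 and Bin2. Likeness is the root-mean-square distance of log2 values centred per gene, which ran from 0.30 to 0.41 over these 5, among 6934 detected genes. Predicted and clone names were left out first, by a filter that also drops symbols such as C2. Ctsb, a lysosomal protease gene, read 810 on B, 2944 on NK and 7916 on NKB. The nearest to Lyz2 were Klra3, Myo1f, Klra8, S1pr5 and Thy1, at distances of 0.14 to 0.39. Klra3, a Ly49 receptor gene of NK cells, read 40.9 on B, 2489 on NK and 563 on NKB. Among the 10 genes Hmox1 was nearest to both, at 0.66 from the C1q chains and 0.55 from Lyz2. With 3 arrays such likeness is a description only.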

How the data were processed

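Total RNA from 3 sorted spleen populations was measured on 1-colour NimbleGen arrays, 1 array each. Each array's deposited file holds 1 intensity per transcript. These are RMA values, according to the submitters' processing notes (version not given in the sources used here). Per the file headers, 44155 of 44170 transcripts have 3 probes, and coordinates are on MM9. A series table holds the same values (largest difference 0). The authors also deposited log2 ratios of 2 arrays, without a test, and another deposited score column of unstated meaning was not used. Averaging few probes limits precision most near the detection level.

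Symbols were updated by gene identifier with a GRCm38.p6 table, names only (39057 transcripts matched). Gene counts leave out 2284 transcripts that have no symbol. The log2 values of a symbol's transcripts were averaged before the level was applied, which gave 24171 genes. The detection level from gene averages was applied to transcripts too. Calls were made at 2-fold, with Python 3.11.15, pandas 2.3.3 and numpy 2.4.6. The steps were tested on simulated data in which only bright genes changed, with less noise than the receptor genes show here. That test does not cover calls near the level. Groups came from the cell type labels. The other genes named are, per list, up to 2 with the largest and smallest difference, or genes whose role bears on one of the 10. The genes, lists and alternatives were chosen with earlier results of these data known. A gene of the red pulp list and one of the erythroid list are not reported here and were left out of the counts.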

Additional observations from a re-analysis of the deposited data

How the results depend on the processing

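No paired analysis was possible because each population has 1 array, and no array could be left out. The number of arrays, and signal over the detection level, limit every value. Over 7 alternatives, 186 of 210 differences of single genes kept their direction and their call, 10 lost the call (2 of these at a threshold of 3-fold), 8 gained one and 6 changed sign. Of the 6, 5 came with the level at the 99th percentile (416 on B, 401 on NK and 235 on NKB), which sets the dim array to a higher value. They were Csf1r in all comparisons (-0.29 in NKB against B, -0.23 in NKB against NK and -0.054 in NK against B), Cd68 in NKB against B (-0.83) and Vcam1 in NK against B (-0.054). The other was C1qa in NKB against NK under quantile normalization. That level also cut the genes higher in NKB than in B from 8 to 4, with Lyz2 at 0.69, Hmox1 at 0.51 and Vcam1 at 0.63, and ended the call of Vcam1 in NKB against NK (0.69). The count of genes higher in NK than in B was 7 and ran from 5 at that level to 9 with none or with the array median as the level. NKB against NK stayed at 2 or 3 higher and 3 or 4 lower under every alternative tried.

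Over all genes, the counts higher and lower in NKB against B were 1102 and 1148, and became 460 and 702 at the 99th percentile, 2076 and 2087 at the array median, 3187 and 3131 with no level, 1865 and 1633 with the brightest transcript, and 501 and 458 at 3-fold. In NKB against NK they were 1442 and 1233, and became 576 and 705, 2462 and 2402, 3670 and 3599, 2218 and 1806, and 743 and 524. In NK against B they were 537 and 717, and became 174 and 269, 1211 and 1251, 2006 and 1943, 854 and 997, and 224 and 232. Quantile normalization and equal medians turned the balance of these counts in NKB against NK (1229 and 1454, and 1293 and 1411) and in NK against B (659 and 603, and 726 and 465). In NKB against B they gave 971 and 1244, and 1223 and 1015.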
